A study of Mus musculus with 12 samples.

Results

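Peroxisome proliferator-activated receptors (PPARs) and 5 of their target genes in fat metabolism were followed in cells sorted from mouse liver cancer organoids. The group was fixed by name and holds 8 genes: the receptors Ppara, Pparg and Ppard and the targets Acaa1b, Ehhadh, Cpt1a, Lpl and Plin2. Each was found by its Ensembl identifier among the 47069 genes of the count table, and all 8 were among the 16157 genes with enough reads to be tested. The organoids came from liver tumors that the carcinogen diethylnitrosamine had induced in Lgr5-DTR-GFP mice of strain C57BL/6, in which the Lgr5 promoter drives a diphtheria toxin receptor and green fluorescent protein. Injections were weekly and began when the mice were some weeks old, and the mice were killed months after induction. Cells were sorted by this fluorescence into LGR5+ and LGR5- cells, after exclusion of dead cells and of cells carrying the leukocyte marker CD45. All 4 groups carry the knock-in allele: untreated LGR5-, untreated LGR5+, 5-FU LGR5- and 5-FU LGR5+ cells, with 3 libraries each. 5-FU (5-fluorouracil) is a pyrimidine analog that blocks thymidylate synthesis and is used as chemotherapy. Its dose and duration for these libraries, the organoid line or lines used and whether replicates were separate cultures are not given in the sources used here, so p-values measure only the spread between these samples.

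PPARs are nuclear receptors that bind DNA as a pair with a retinoid X receptor and switch on genes when fatty acids or related lipids bind to them. PPARα is best known from hepatocytes, where it drives fatty acid oxidation in peroxisomes and mitochondria, PPARγ from fat cells, where it drives lipid storage, and PPARδ is expressed broadly. Peroxisomes shorten very long fatty acids through acyl-CoA oxidases, the bifunctional enzyme encoded by Ehhadh and the thiolases encoded by Acaa1a and Acaa1b. Mitochondria take up fatty acids through the carnitine shuttle, whose entry enzyme in liver is encoded by Cpt1a. Lpl encodes the lipase that frees fatty acids from circulating triglycerides, and Plin2 encodes a protein that coats lipid droplets.

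The promoters of the genes whose levels rose are shown first, with that of Acaa1a, the neighbor that resembles Acaa1b most. Each window holds the 250 bases upstream of the RefSeq start on the gene's own strand, in mouse build GRCm38.p6. For Plin2 it is chr4:86670060-86670309 (minus strand), for Acaa1b chr9:119157094-119157343 (minus strand) and for Acaa1a chr9:119341044-119341293 (plus strand). Capitals mark a match, with up to 2 mismatches at the 12 fixed letters and on either strand, to 2 copies of AGGTCA in the same direction and 1 base apart, the kind of repeat to which PPARs bind.
Plin2: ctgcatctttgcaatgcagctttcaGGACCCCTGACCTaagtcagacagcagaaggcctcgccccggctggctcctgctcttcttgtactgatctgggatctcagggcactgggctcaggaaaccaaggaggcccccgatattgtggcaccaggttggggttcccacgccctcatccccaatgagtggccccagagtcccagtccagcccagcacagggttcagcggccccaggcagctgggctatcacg
Acaa1b: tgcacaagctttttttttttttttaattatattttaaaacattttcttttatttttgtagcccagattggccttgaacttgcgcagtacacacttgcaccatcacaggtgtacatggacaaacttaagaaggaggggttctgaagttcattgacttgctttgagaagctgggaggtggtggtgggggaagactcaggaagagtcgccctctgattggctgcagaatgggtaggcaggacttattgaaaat
Acaa1a: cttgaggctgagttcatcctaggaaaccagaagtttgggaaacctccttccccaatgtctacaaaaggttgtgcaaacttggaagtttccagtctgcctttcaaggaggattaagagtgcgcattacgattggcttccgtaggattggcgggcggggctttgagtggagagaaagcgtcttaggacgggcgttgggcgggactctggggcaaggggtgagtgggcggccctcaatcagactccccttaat
Plin2 held 1 match, on the strand opposite to the gene, with 2 mismatches and 212 bases from the start. No match lay in the windows of Acaa1b or Acaa1a, nor in those of Ppara, Pparg, Ppard, Ehhadh and Cpt1a, which are not shown. Of 32851 mouse promoter windows of this length, 1063 (3.24%) held at least 1 such match and 11 (0.0335%) an exact one.

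The 12 libraries held 13750591 to 19323514 reads, so that 3 reads corresponded to 0.165 to 0.220 CPM, the read count relative to the total of the library. CPM values below were scaled with TMM (trimmed mean of M-values) normalization. Mitochondrial reads made up 1.47 to 3.08% of the reads of 10 libraries, and 6.93% and 6.44% in replicate 3 of the untreated and of the 5-FU LGR5- cells, so the responses of LGR5- cells were also fitted without both libraries. Of the named genes called in LGR5- cells, Acsbg1 alone lost its call in that fit (log2 fold change 1.46, edgeR adjusted p = 0.0571). Lgr5 RNA itself did not separate the sorted cells: it ranged from 23.0 to 36.0 CPM in untreated LGR5- and from 23.3 to 27.5 CPM in untreated LGR5+ libraries (log2 fold change -0.17, SE 0.23, edgeR adjusted p = 1), and after 5-FU from 18.3 to 35.9 CPM and from 26.8 to 27.2 CPM (0.11, SE 0.23, adjusted p = 0.842). LGR5+ and LGR5- therefore name the sort gates. Of 12 hepatocyte markers 4 reached 1 CPM in any library. Afp and Ass1 were at 16.3 ± 5.80 and 16.7 ± 1.04 CPM (SD, n = 3) in untreated LGR5- cells, whereas Alb was below 1 CPM on average in every group, Hnf4a had 2 reads over all libraries, and Serpina1a and Fgb had no read. The cholangiocyte markers Krt19 and Epcam were at 387 ± 14.1 and 1374 ± 113 CPM in untreated LGR5- cells, and the lung surfactant gene Sftpc was at 12407 ± 7778 CPM there.

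Levels of different genes were compared as CPM per kilobase of exon (mean ± SD, n = 3). In untreated LGR5- cells Plin2 was highest at 10.6 ± 1.65, followed by Lpl at 2.18 ± 0.192, Cpt1a at 1.74 ± 0.168, Ehhadh at 1.62 ± 0.489 and Acaa1b at 1.41 ± 0.654. The last 3 lay within each other's spread. The receptors were lower, with Ppard at 0.774 ± 0.298, Pparg at 0.271 ± 0.210 and Ppara at 0.168 ± 0.0310, the last 2 again within their spread. Untreated LGR5+ cells held Plin2 at 12.4 ± 1.41, Lpl at 2.83 ± 0.970, Acaa1b at 1.19 ± 0.192 and Ppard at 0.601 ± 0.157. After 5-FU the order changed. In LGR5+ cells Plin2 stood at 46.3 ± 7.0, Acaa1b was second at 12.2 ± 2.0, and Lpl at 0.654 ± 0.107 was level with Ppard at 0.654 ± 0.0146. In 5-FU LGR5- cells Plin2 was at 32.3 ± 7.28, Acaa1b at 8.32 ± 3.06, Lpl at 0.715 ± 0.130 and Ppard at 0.859 ± 0.0982.

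5-FU changed 3 of the 8 genes, in both sorted populations and in the same direction in each. Acaa1b and Plin2 rose and Lpl fell, whereas the 3 receptors, Ehhadh and Cpt1a did not pass the test. In LGR5+ cells 16.0% of all tested genes were called (9.66% higher and 6.37% lower), and in LGR5- cells 15.4% (8.30% higher and 7.11% lower). The median log2 fold change of the 8 genes was 0.19 in LGR5+ and -0.11 in LGR5- cells, beside -0.02 and -0.05 over all tested genes. Without both LGR5- replicate 3 libraries the same 3 genes were called in LGR5- cells. The plot of the response shows each gene with its error.

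**Figure D1:**
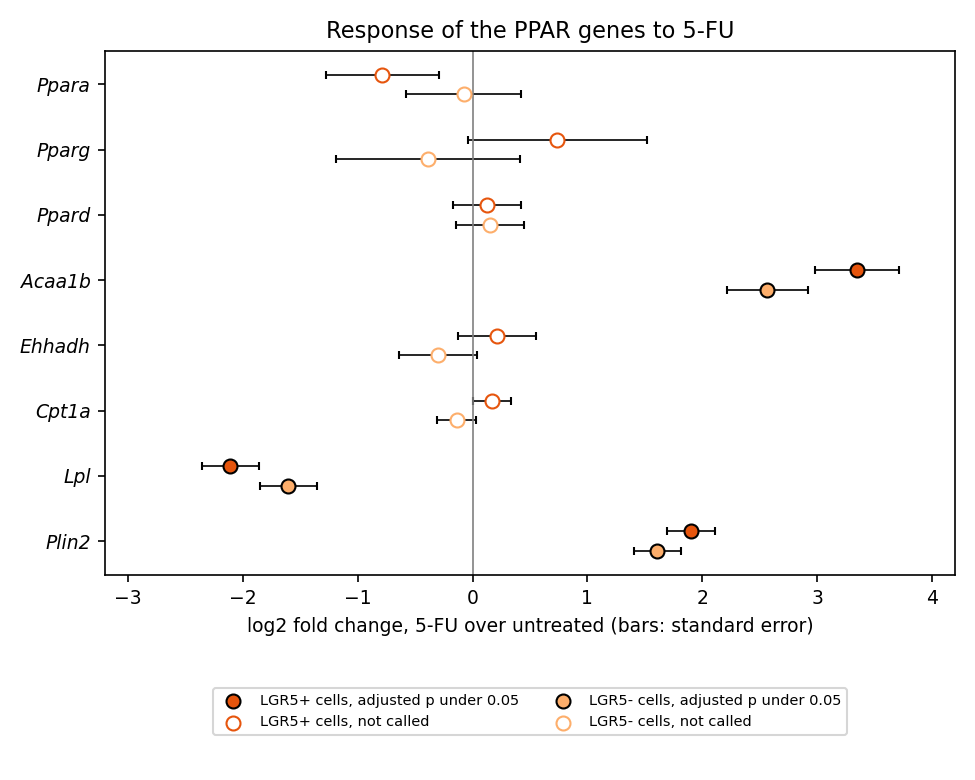
Log2 fold change (5-FU over untreated, x axis) of the 8 genes in LGR5+ cells (dark) and LGR5- cells (light), with bars of 1 standard error from the fit. Filled points, those of Acaa1b, Plin2 and Lpl, had an adjusted p under 0.05, and open points did not.

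The receptors were expressed at low levels in all 4 groups. Ppara, the receptor behind the hepatic fasting response, was at 0.606, 0.549 and 0.777 CPM in the untreated LGR5- libraries (10, 10 and 14 reads) and at 0.751, 0.983 and 1.02 CPM in the untreated LGR5+ libraries (13, 16 and 17 reads). After 5-FU it was at 0.294, 0.878 and 0.660 CPM in LGR5- and at 0.450, 0.550 and 0.585 CPM in LGR5+ cells. The 5-FU LGR5+ libraries all lay below the untreated LGR5+ ones, while the LGR5- groups overlapped. The log2 fold change was -0.79 (SE 0.49, edgeR adjusted p = 0.318) in LGR5+ and -0.08 (SE 0.50, adjusted p = 0.939) in LGR5- cells.

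Pparg, the receptor of fat cells, varied more between replicates than between groups. It was at 0.969, 1.32 and 0.111 CPM in untreated LGR5- and at 1.10, 0.614 and 0.299 CPM in untreated LGR5+ cells. After 5-FU it was at 1.12, 0.527 and 0.147 CPM in LGR5- and at 1.57, 1.27 and 0.526 CPM in LGR5+ cells. Replicate 3 was the lowest in every group, and in both LGR5- groups it rested on 2 reads. The log2 fold change was 0.74 (SE 0.78, edgeR adjusted p = 0.577) in LGR5+ and -0.39 (SE 0.80, adjusted p = 0.794) in LGR5- cells.

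Ppard was the most abundant receptor, also per kilobase. It was at 3.70, 5.60 and 8.16 CPM in untreated LGR5-, at 3.29, 5.65 and 4.60 CPM in untreated LGR5+, at 7.30, 5.91 and 6.16 CPM in 5-FU LGR5- and at 4.95, 5.01 and 4.79 CPM in 5-FU LGR5+ cells. Treated and untreated libraries overlapped in both populations. The log2 fold change was 0.12 (SE 0.30, edgeR adjusted p = 0.827) in LGR5+ and 0.15 (SE 0.29, adjusted p = 0.784) in LGR5- cells.

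**Figure D2:**
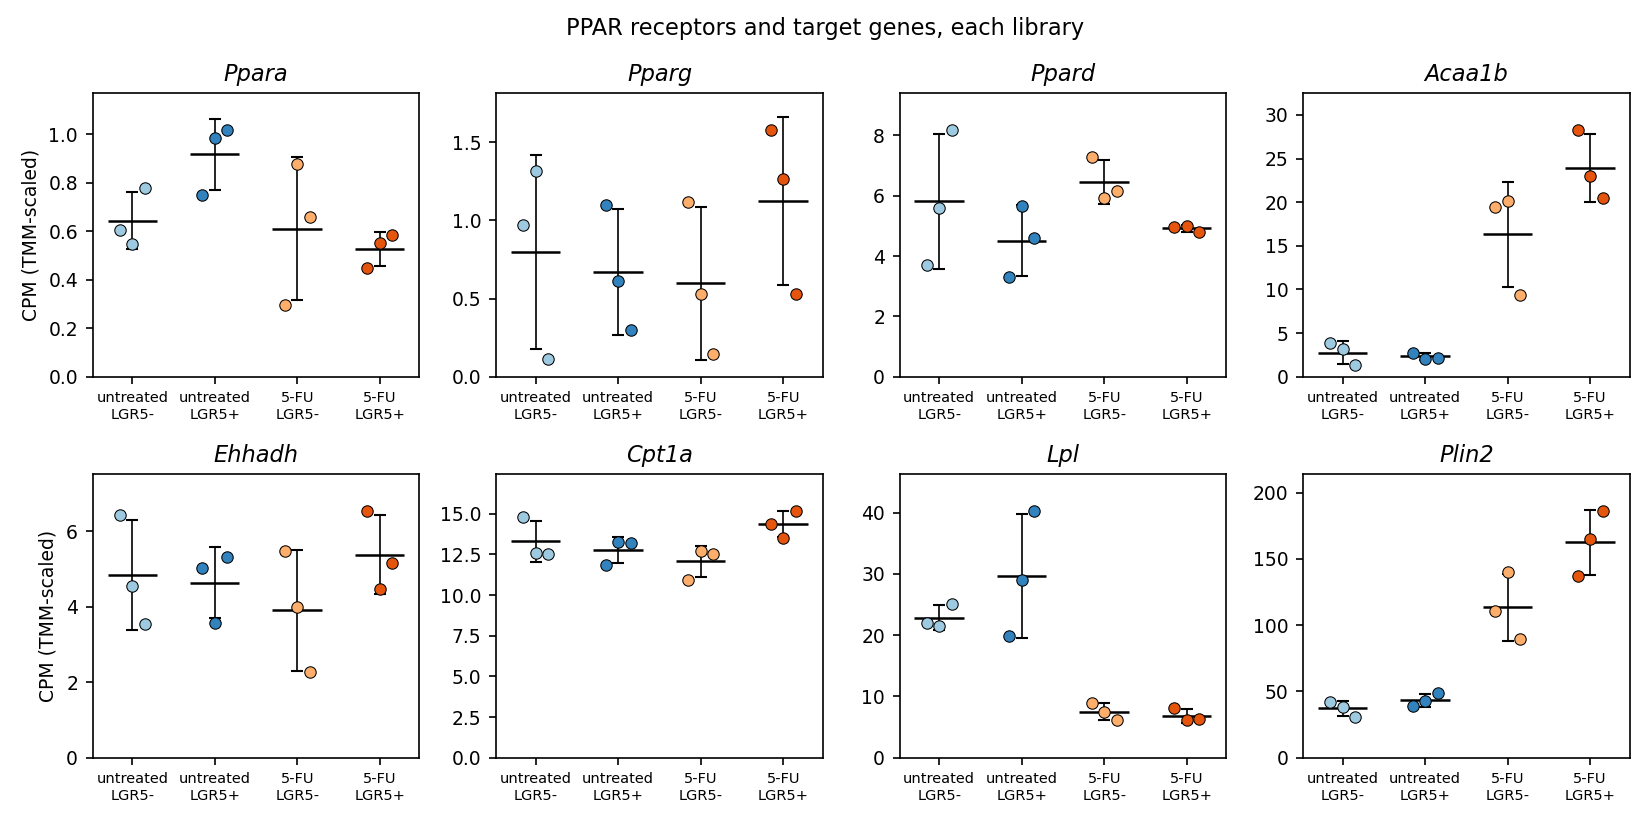
TMM-scaled CPM (y axis, linear and from 0) of each gene in each of the 12 libraries by group (x axis), with the mean as a line and the SD as bars. Acaa1b and Plin2 were higher and Lpl lower in all 6 5-FU libraries than in all 6 untreated ones.

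Among 16 partners and cofactors of the receptors, 15 were tested. In LGR5+ cells 2 rose and none fell, and in LGR5- cells 1 rose and none fell. Of all tested genes 16.0% were called in LGR5+ and 15.4% in LGR5- cells, the shares that apply to this and the following lists. Rxra, the retinoid X receptor that pairs with PPARs, rose 2.18-fold in LGR5+ cells (log2 fold change 1.12, SE 0.26, edgeR adjusted p = 0.00874), from 6.87, 10.6 and 8.66 CPM to 20.2, 19.0 and 17.7 CPM. In LGR5- cells its log2 fold change was 0.59 (SE 0.26, adjusted p = 0.153), where 5-FU replicate 3 was at 6.53 CPM against 14.4 and 13.1 CPM in the others. Without that library the LGR5- value was 0.90 and passed the test, and without both replicate 3 libraries it was 0.82 and passed. Lpin1, a phosphatidate phosphatase that also acts as a coactivator, rose by 0.68 (SE 0.22, adjusted p = 0.0489) and 0.75 (SE 0.22, adjusted p = 0.0321) on the log2 scale in LGR5+ and LGR5- cells. Its call was lost when any 1 of the 6 LGR5+ libraries was left out (highest adjusted p = 0.210) and in 5 of 6 such fits in LGR5- cells (all but that without untreated replicate 3, highest adjusted p = 0.129). With scaling by library size only Lpin1 was called in neither population (adjusted p = 0.150 and 0.0755), and its LGR5+ call was lost under the filter of at least 10 reads in every library (adjusted p = 0.0611). The coactivators Med1 (-0.40, adjusted p = 0.0929, and -0.41, adjusted p = 0.0921) and Ppargc1a (-0.45, adjusted p = 0.187, and -0.40, adjusted p = 0.253) did not pass in LGR5+ or LGR5- cells.

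Acaa1b, a thiolase that makes the last cut of each peroxisomal oxidation cycle, had the largest fold change of the 8 genes. Untreated libraries held 3.82, 3.13 and 1.33 CPM in LGR5- and 2.77, 2.09 and 2.15 CPM in LGR5+ cells. 5-FU libraries held 19.4, 20.1 and 9.39 CPM in LGR5- and 28.2, 23.1 and 20.5 CPM in LGR5+ cells. Every treated library was thus above every untreated one. The rise was 10.2-fold in LGR5+ cells (log2 fold change 3.35, SE 0.37, edgeR adjusted p = 3.02e-05) and 5.93-fold in LGR5- cells (2.57, SE 0.36, adjusted p = 0.000306). Replicate 3 was the lowest LGR5- library both untreated and after 5-FU. Without both of these libraries the LGR5- log2 fold change was 2.51 (adjusted p = 2.35e-05).

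Acaa1b lies on mouse chromosome 9 (GRCm38, 119148023 to 119157093, minus strand), close to its copy Acaa1a (119339676 to 119350299, plus strand). Acaa1a was at 59.7 to 85.3 CPM in the untreated and 38.1 to 84.1 CPM in the 5-FU libraries, and did not pass the test (log2 fold change 0.12, SE 0.23, edgeR adjusted p = 0.776 in LGR5+, and -0.23, SE 0.23, adjusted p = 0.574 in LGR5- cells). Acaa1b reads made up 3.44 ± 1.22% (SD, n = 3) of the reads of both genes in untreated LGR5-, 3.08 ± 0.551% in untreated LGR5+, 20.3 ± 0.483% in 5-FU LGR5- and 22.9 ± 2.27% in 5-FU LGR5+ cells. In LGR5- replicate 3 both genes were low after 5-FU, and the share, at 19.8%, was close to the 20.7% and 20.3% of the others. The transcripts of both genes were 90.7% identical over 1636 aligned bases. Of the 150-base stretches of Acaa1b transcripts, 11.3% were also found in Acaa1a, so reads of those stretches could be assigned to either gene. The exons of Acaa1b also overlap Dlec1 on the opposite strand, which held 4 to 11 reads in the untreated and 20 to 48 in the 5-FU libraries. Those of Acaa1a overlap Myd88 on the opposite strand, at 218 to 605 and 327 to 1005 reads. Without strand such reads cannot be told apart, and their part in the counts was not tested.

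**Figure D3:**
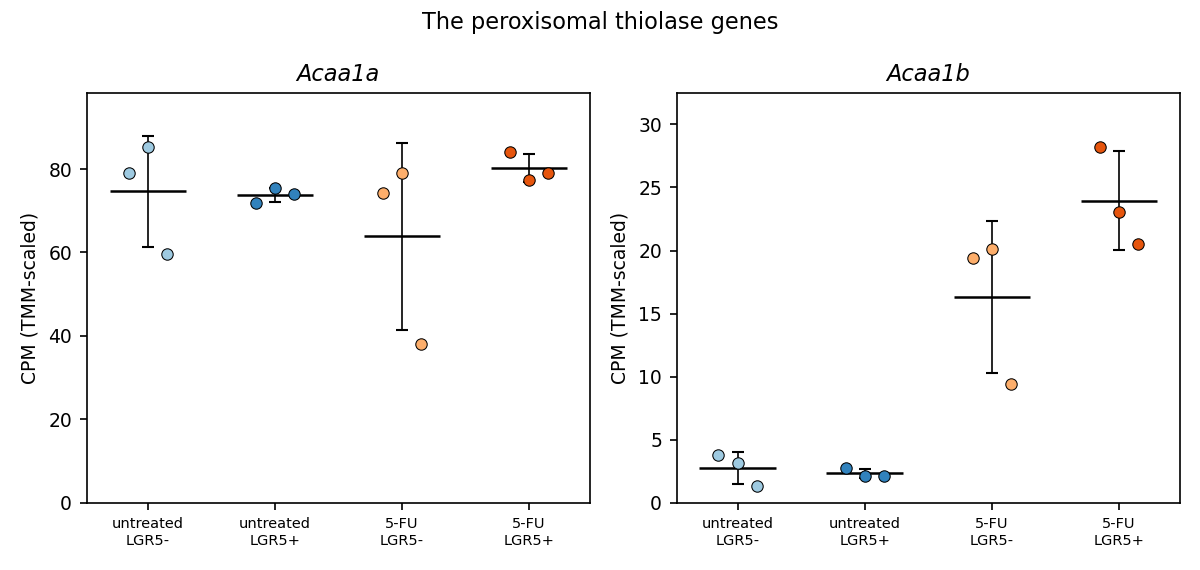
TMM-scaled CPM (y axes, linear and from 0, with different ranges) of the thiolase genes Acaa1a and Acaa1b in each of the 12 libraries by group, with the mean as a line and the SD as bars. Acaa1b was at most 3.82 CPM untreated and at least 9.39 CPM after 5-FU, while Acaa1a ran from 59.7 to 85.3 CPM untreated and from 38.1 to 84.1 CPM after 5-FU.

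Ehhadh, whose product hydrates and oxidizes the chain before the thiolase acts, did not pass the test. It was at 6.42, 4.55 and 3.55 CPM in untreated LGR5-, at 5.02, 3.56 and 5.32 CPM in untreated LGR5+, at 5.47, 3.98 and 2.27 CPM in 5-FU LGR5- and at 6.52, 4.46 and 5.14 CPM in 5-FU LGR5+ cells. The groups overlapped in both populations. The log2 fold change was 0.21 (SE 0.34, edgeR adjusted p = 0.721) in LGR5+ and -0.30 (SE 0.34, adjusted p = 0.610) in LGR5- cells. Hsd17b4, which encodes the other bifunctional enzyme of this step, was at 0.15 (adjusted p = 0.757) and -0.15 (adjusted p = 0.747).

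Of the 22 other peroxisomal genes, 19 were tested, and 3 rose and none fell in each population. Over all tested genes the shares called were 16.0% in LGR5+ and 15.4% in LGR5- cells. The median log2 fold change of the 19 genes was 0.23 in LGR5+ and -0.10 in LGR5- cells. Acox3, an acyl-CoA oxidase, rose by 1.05 (SE 0.22, edgeR adjusted p = 0.00489) in LGR5+ and 0.83 (SE 0.22, adjusted p = 0.0203) in LGR5- cells on the log2 scale. It was at 5.87 to 10.7 CPM in the 6 untreated and 13.0 to 17.9 CPM in the 6 treated libraries, without overlap. Eci2, an enoyl-CoA isomerase, rose by 0.50 (SE 0.16, adjusted p = 0.0478) and 0.53 (SE 0.16, adjusted p = 0.0397). The LGR5- calls rested on single libraries: 0 of the 3 were called without untreated replicate 1, and 1 each without untreated replicate 2 or without 5-FU replicate 1. Acox3 was also lost without 5-FU LGR5- replicate 3 (log2 fold change 0.78), and Eci2 without any 1 of the LGR5+ libraries (highest adjusted p = 0.150) and without untreated replicate 3 or 5-FU replicate 2 of LGR5- cells (0.41 and 0.49). Without a filter on low counts Eci2 was called in neither population (adjusted p = 0.206 and 0.114), and the LGR5- count of 3 became 1. Its LGR5+ call was also lost with RLE size factors (adjusted p = 0.0530) and with scaling by library size only (adjusted p = 0.0933).

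Cpt1a, the gate of fatty acid entry into mitochondria, had group means between 12.1 and 14.4 CPM. It was at 14.8, 12.6 and 12.5 CPM in untreated LGR5-, at 11.8, 13.3 and 13.2 CPM in untreated LGR5+, at 10.9, 12.7 and 12.5 CPM in 5-FU LGR5- and at 14.4, 13.5 and 15.1 CPM in 5-FU LGR5+ cells. In LGR5+ cells the treated libraries all lay above the untreated ones, by little. The log2 fold change was 0.17 (SE 0.17, edgeR adjusted p = 0.544) in LGR5+ and -0.14 (SE 0.17, adjusted p = 0.632) in LGR5- cells.

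Of 23 other mitochondrial oxidation and carnitine shuttle genes, 22 were tested, and in each population 1 rose and 1 fell. Over all tested genes the shares called were 16.0% in LGR5+ and 15.4% in LGR5- cells. Acad11, an acyl-CoA dehydrogenase, rose by 1.12 (SE 0.22, edgeR adjusted p = 0.00324) in LGR5+ and 0.83 (SE 0.22, adjusted p = 0.0212) in LGR5- cells on the log2 scale. Echs1, the enoyl-CoA hydratase for short chains, fell from 103 to 134 CPM in the untreated libraries to 42.8 to 66.1 CPM in the treated ones (log2 fold change -1.05, SE 0.18, adjusted p = 0.00135 in LGR5+, and -1.04, SE 0.18, adjusted p = 0.00195 in LGR5- cells). Cpt1c, a carnitine palmitoyltransferase known from brain, was at 0.48 (adjusted p = 0.232) and 0.74 (adjusted p = 0.0685). Without untreated LGR5- replicate 3, which at 18.5 CPM was above the 8.85 and 9.05 CPM of the others, the LGR5- value was 1.17 and passed. With all libraries it also passed under DESeq2 (0.76, adjusted p = 0.0377) and without a filter on low counts (0.78, adjusted p = 0.0216). The LGR5- count of 2 called genes became 4 without that library and 1 without replicate 2 of either LGR5- group, where Acad11 was lost (0.82 and 0.74).

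Lpl fell in every treated library. It was at 21.9, 21.5 and 25.2 CPM in untreated LGR5-, at 19.9, 28.9 and 40.2 CPM in untreated LGR5+, at 8.89, 7.44 and 6.16 CPM in 5-FU LGR5- and at 8.15, 6.16 and 6.26 CPM in 5-FU LGR5+ cells. The highest treated library was below the lowest untreated one in both populations. The log2 fold change was -2.11 (SE 0.25, edgeR adjusted p = 5.66e-05) in LGR5+ and -1.60 (SE 0.25, adjusted p = 0.000670) in LGR5- cells. Without both LGR5- replicate 3 libraries the latter was -1.41 (adjusted p = 0.00401).

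Around Lpl, a list of 13 genes of the lipase system held 8 that were tested. Of these, 2 rose and 1 fell in LGR5+ and 1 rose and 1 fell in LGR5- cells, beside 16.0% and 15.4% of all tested genes. Pltp, the phospholipid transfer protein, rose 3.44-fold in LGR5+ (log2 fold change 1.78, SE 0.34, edgeR adjusted p = 0.00222) and 2.13-fold in LGR5- cells (1.09, SE 0.34, adjusted p = 0.0411), where the call was lost with scaling by library size only (adjusted p = 0.0620) and with the replicate block (adjusted p = 0.0527). Apoc2, the activator of the lipase, fell by 1.14 on the log2 scale in LGR5+ cells (SE 0.27, adjusted p = 0.00907), where the call was lost without 5-FU replicate 2 (-1.0) or 3 (-1.01). It was at -0.53 (adjusted p = 0.199) in LGR5- cells. Lipg, the endothelial lipase, fell by 2.13 (SE 0.64, adjusted p = 0.0354) in LGR5- cells from 0.833 to 1.09 CPM to 0.0589 to 0.440 CPM, and was at -0.90 (adjusted p = 0.319) in LGR5+ cells. The LGR5+ count of 3 became 1 without 5-FU replicate 2 or 3, and was at most 2 without any 1 LGR5+ library. No gene of this list was called in LGR5- cells without replicate 1 or replicate 2 of either LGR5- group.

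Plin2 was the most abundant of the 8 genes and rose in every treated library. It was at 42.2, 38.6 and 30.8 CPM in untreated LGR5-, at 38.7, 42.8 and 48.6 CPM in untreated LGR5+, at 110, 140 and 89.5 CPM in 5-FU LGR5- and at 137, 165 and 186 CPM in 5-FU LGR5+ cells. The lowest treated library was above the highest untreated one. The rise was 3.74-fold in LGR5+ (log2 fold change 1.90, SE 0.21, edgeR adjusted p = 3.04e-05) and 3.05-fold in LGR5- cells (1.61, SE 0.21, adjusted p = 0.000172). Without both LGR5- replicate 3 libraries the LGR5- value was 1.64 (adjusted p = 0.000132).

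Of 19 other lipid droplet genes, 13 were tested, of which 2 rose and 1 fell in LGR5+ and 1 rose in LGR5- cells. Over all tested genes the shares called were 16.0% and 15.4%. Bscl2, which encodes the droplet assembly protein seipin, rose from 35.4 to 43.9 CPM in the untreated to 101 to 133 CPM in the treated libraries (log2 fold change 1.68, SE 0.17, edgeR adjusted p = 1.65e-05 in LGR5+, and 1.56, SE 0.17, adjusted p = 4.98e-05 in LGR5- cells). Abhd5, the coactivator of triglyceride lipase, rose by 1.19 (SE 0.21, adjusted p = 0.00162) in LGR5+ cells and was at 0.34 (adjusted p = 0.322) in LGR5- cells. Pnpla3, a droplet lipase homolog, fell by 2.26 (SE 0.65, adjusted p = 0.0293) in LGR5+ cells and was at -1.01 (adjusted p = 0.289) in LGR5- cells. Its LGR5+ call was lost without untreated replicate 3 (-1.92) or any 1 of the 5-FU LGR5+ libraries (-2.36, -2.57 and -1.91). The LGR5- count of 1 became 2 without replicate 3 of either LGR5- group and 3 without both. Plin1 and Plin4, other perilipins, did not exceed 3 reads in any library, and Cidec had no read.

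**Figure D4:**
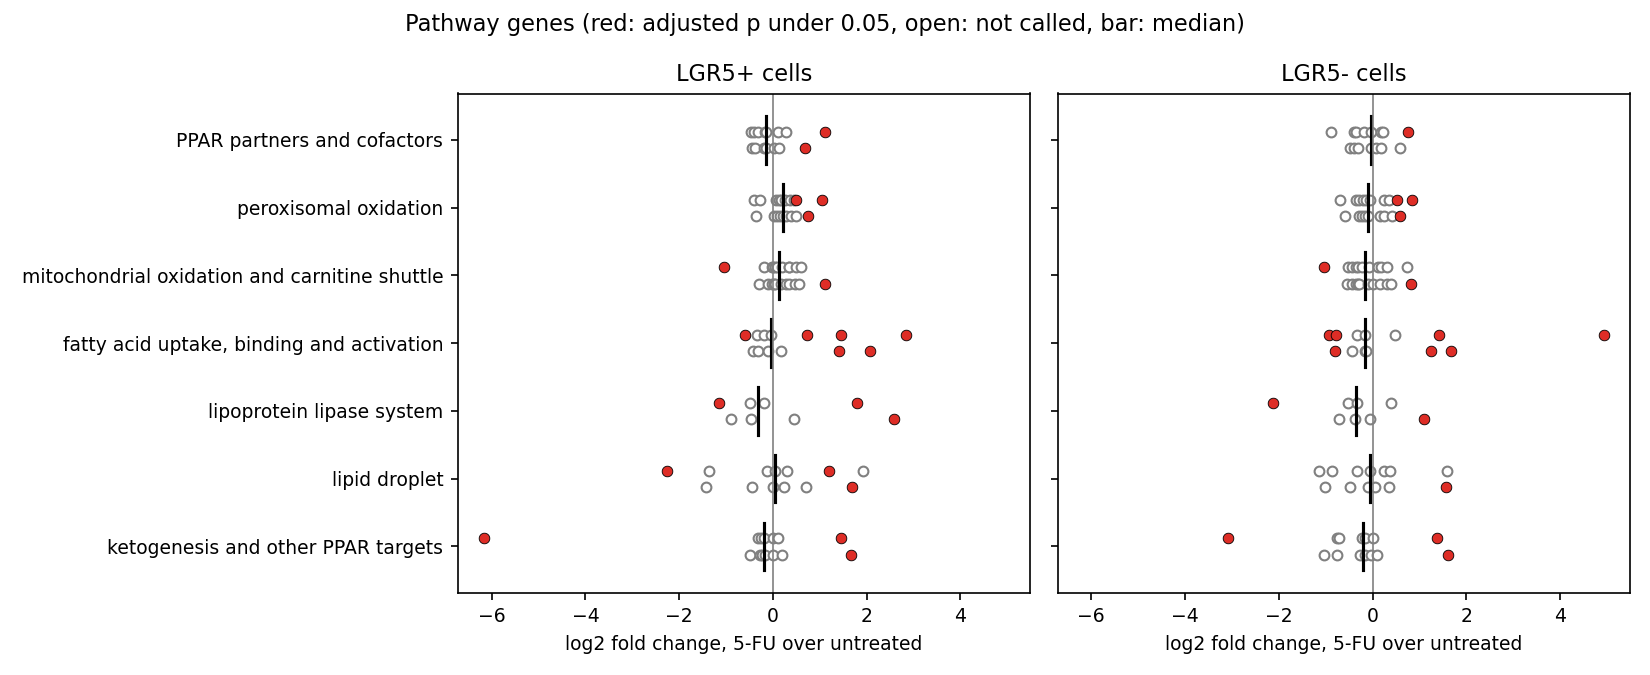
Log2 fold change (5-FU over untreated, x axis) of the tested genes of 7 pathway lists in LGR5+ (left) and LGR5- (right) cells, with called genes in red, others open and list medians as bars. List medians lay between -0.35 and 0.23, with single genes such as Fgf21 and Fabp4 far from them.

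Of 20 genes of fatty acid uptake, binding and activation, 13 were tested. Of these, 5 rose and 1 fell in LGR5+ and 4 rose and 3 fell in LGR5- cells, beside 16.0% and 15.4% of all tested genes. Slc27a3, a fatty acid transport protein with acyl-CoA synthetase activity, rose 2.75-fold and 2.67-fold (log2 fold change 1.46, SE 0.18, edgeR adjusted p = 9.18e-05, and 1.41, SE 0.18, adjusted p = 0.000179). Acsbg1, an acyl-CoA synthetase, rose by 2.07 (SE 0.43, adjusted p = 0.00433) and 1.68 (SE 0.44, adjusted p = 0.0178). Fabp4, the adipocyte and endothelial fatty acid binding protein, was at 0 to 16 reads in untreated LGR5- and 0 to 27 reads in untreated LGR5+ libraries, and at 119 to 285 and 67 to 123 reads after 5-FU (2.84, SE 0.85, adjusted p = 0.0366 in LGR5+, and 4.93, SE 0.93, adjusted p = 0.00340 in LGR5- cells). The LGR5+ call of Fabp4 was lost without any 1 LGR5+ library except untreated replicate 2 (log2 fold changes from 2.27 to 3.02). It was also lost with all libraries under DESeq2 (2.84, adjusted p = 0.107), without a filter on low counts (2.82, adjusted p = 0.156) and with the replicate block (adjusted p = 0.0734). The LGR5- call of Fabp4 held without any 1 library, at log2 fold changes from 4.38 to 6.58. The LGR5+ count of 6 called genes became 3 without any 1 library except 5-FU replicate 1, and the LGR5- count of 7 became 4 without untreated replicate 1, where Acsbg1 was lost (1.63). Acsbg1 was also lost without both LGR5- replicate 3 libraries (1.46). Fabp1, the binding protein of hepatocytes, had no read, and the scavenger receptor gene Cd36 had at most 14 reads a library.

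Of 24 genes of ketogenesis and other known PPAR targets, 14 were tested, of which 2 rose and 1 fell in each population. Pdk4, the kinase that turns off pyruvate dehydrogenase, rose 2.75-fold in LGR5+ (log2 fold change 1.46, SE 0.21, edgeR adjusted p = 0.000335) and 2.58-fold in LGR5- cells (1.37, SE 0.21, adjusted p = 0.000762). Vnn1, which encodes a pantetheinase, rose 3.16-fold (1.66, SE 0.35, adjusted p = 0.00454) and 3.06-fold (1.61, SE 0.35, adjusted p = 0.00598). Fgf21, a hormone of the fasting and stress responses, fell from 13 to 56 reads in the untreated libraries to 0, 1 and 0 reads in 5-FU LGR5+ (adjusted p = 0.00149) and 1, 0 and 5 reads in 5-FU LGR5- cells (adjusted p = 0.0280). The LGR5- call of Fgf21 was lost without untreated replicate 2 (log2 fold change -2.99) and without 5-FU replicate 1 (-2.73) or 2 (-2.49). The LGR5- count of 3 became 7 without untreated replicate 3 and 6 without both replicate 3 libraries. Cyp4a14, a classical PPARα target, had no read. In all, 104 of the 137 genes of the 7 lists were tested, of which 17 rose and 5 fell in LGR5+ (21.2%) and 13 rose and 6 fell in LGR5- cells (18.3%), beside the shares of 16.0% and 15.4% over all tested genes. When each population was fitted alone, the 22 calls in LGR5+ cells became 31 and the 19 in LGR5- cells became 7. In LGR5- cells the calls then went from 3 to 0 for peroxisomal oxidation, from 2 to 0 for the lipase system, from 1 to 0 for partners and cofactors, from 2 to 1 for mitochondrial oxidation and from 7 to 3 for fatty acid uptake, and in LGR5+ cells from 3 to 7 for the lipid droplet. Of the named genes, Lpin1, Acox3, Eci2, Acad11, Acsbg1, Pltp, Lipg and Fgf21 lost their LGR5- call in that fit (adjusted p from 0.0523 for Acsbg1 to 0.181 for Pltp), and Med1 gained one in LGR5+ cells (-0.41, adjusted p = 0.0405). At the study's thresholds (log2 fold change beyond 1.5 in either direction, p under 0.05 without adjustment) the lists held 9 and 7 calls in LGR5+ and LGR5- cells.

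The 10 PPAR pathway genes that the study listed were chosen on these samples, so their direction is not independent evidence. Of these, 7 were tested, of which 5 rose and 2 fell in LGR5+ and 4 rose and 2 fell in LGR5- cells. Lpl and Pck2 were those that fell, Pck2, the mitochondrial enzyme of gluconeogenesis, by 2.02 (SE 0.31, edgeR adjusted p = 0.000489) and 1.88 (SE 0.31, adjusted p = 0.00109). Angptl4, an inhibitor of lipoprotein lipase, rose in LGR5+ cells (2.57, SE 0.80, adjusted p = 0.0417) from 5, 2 and 1 to 14, 22 and 16 reads, and was at 0.39 (adjusted p = 0.794) in LGR5- cells. Its call was lost without any 1 of the 6 LGR5+ libraries (highest adjusted p = 0.164). Cpt1b, Fabp2 and Slc27a6 had too few reads to be tested, at most 3, 7 and 21 in any library.

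None of the 8 genes passed the test between the sorted populations. Untreated LGR5+ and LGR5- cells gave 0.00% of all tested genes called with edgeR. At an unadjusted p under 0.05 there were 214 genes, none of them among the 8, and DESeq2 called 0 genes at an adjusted p under 0.05. After 5-FU edgeR also called 0.00%, with 2095 genes at an unadjusted p under 0.05, and DESeq2 called 75 genes. Plin2 was the only one of the 8 genes among the 2095, at a log2 fold change of 0.52 (SE 0.20, unadjusted p = 0.0217, edgeR adjusted p = 0.359), and its groups overlapped. Within the same-numbered pairs Pparg, Acaa1b, Ehhadh, Cpt1a and Plin2 were higher in LGR5+ cells in 3 of 3 and Ppard was lower in 3 of 3, while Ppara and Lpl differed in sign between pairs. With the replicate block none of the 8 genes passed the test (edgeR adjusted p from 0.258 for Plin2 to 0.887 for Ppara). That block gave each replicate number 1 effect over all 12 libraries, so it is not a paired test of the 5-FU libraries alone. The LGR5+ libraries all lay above the LGR5- ones for Acaa1b and Cpt1a and all below them for Ppard. How many of all tested genes were as one-sided, in pairs or as groups, was not counted. No pattern of the 8 genes is therefore read from these counts. Cpt1a was at a log2 fold change of 0.25 (SE 0.17, adjusted p = 0.489) and Ppard at -0.39 (SE 0.30, adjusted p = 0.533). Acaa1b was at 0.55 (SE 0.32, adjusted p = 0.447), and without both LGR5- replicate 3 libraries it was at 0.27 (adjusted p = 0.636).

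The response to 5-FU was not shown to differ between the populations. The test of the difference called 0.00% of all genes (254 at an unadjusted p under 0.05, none of the 8 among them, and 0 by DESeq2). The difference, LGR5+ minus LGR5- response, was 0.78 (SE 0.49) for Acaa1b, -0.51 (SE 0.34) for Lpl and 0.29 (SE 0.29) for Plin2 on the log2 scale, each with an edgeR adjusted p of 1.0. Single libraries moved these values: leaving out 1 gave 0.47 to 1.12 for Acaa1b, -0.73 to -0.23 for Lpl and 0.12 to 0.48 for Plin2. Acaa1b was lowest without 5-FU LGR5- replicate 3 (0.47) and untreated LGR5- replicate 1 (0.48), and Lpl was nearest to 0 without untreated LGR5+ replicate 3. Plin2 was at 0.12 without 5-FU LGR5- replicate 3, 0.48 without 5-FU LGR5- replicate 2, 0.19 without 5-FU LGR5+ replicate 3 and 0.20 without untreated LGR5- replicate 1, and at 0.17 when scaled by library size only. Differences of these sizes lay within 2 standard errors, which does not show that the populations responded alike.

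Across the 12 libraries the levels of the responding genes moved together, as a description over libraries that share the treatment groups. Pearson's r of log2 CPM was 0.96 between Acaa1b and Plin2, -0.92 between Acaa1b and Lpl and -0.90 between Lpl and Plin2. Among all tested genes, those with the most similar pattern were Cenpt (0.99), Cald1 (0.99) and Pdlim2 (0.99) for Acaa1b, Sfn (0.99), Krt19 (0.99) and Junb (0.99) for Plin2, and Atp6v1b1 (0.98), Hist1h1d (0.97) and Tbc1d4 (0.97) for Lpl.

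Markers of other cells also moved with 5-FU. In bulk samples fewer cells of a type and less RNA per cell cannot be told apart. Summed macrophage markers were at 40.8 to 43.5 and 56.9 to 92.4 CPM in untreated LGR5- and LGR5+ cells and at 101 to 166 and 120 to 185 CPM after 5-FU. Of those 12 markers 4 reached 1 CPM in any library and 2, Cd68 and Lyz2, rose in both populations, while Marco had no read and Adgre1 and Csf1r had at most 7 and 11 reads. Summed adipocyte markers, of which 3 of 10 reached 1 CPM, were at 11 to 19.0 and 12.7 to 16.5 CPM untreated and at 16.7 to 26.7 and 12.9 to 20.1 CPM after 5-FU, with Lep at no read and Adipoq at 2 reads at most. Fabp4, itself on this list, was the called one of its 2 tested markers, and the other, Gpd1, was at 8.99 to 18.8 CPM untreated and 4.62 to 15.3 CPM after 5-FU. Of 10 endothelial markers 3 reached 1 CPM, their sum going from 2.96 to 5.61 and 3.70 to 6.57 CPM to 10.4 to 23.4 and 7.83 to 11.9 CPM, with Fabp4 again the called one and Cdh5 at 1 read in all. Summed cholangiocyte markers, 9 of 10 reaching 1 CPM, were at 2466 to 2934 and 2958 to 3208 CPM untreated and at 3573 to 8042 and 8220 to 12093 CPM after 5-FU, with Krt7, Krt19 and Cldn4 higher and Prom1 lower in both populations. Summed hepatocyte markers went from 30.6 to 40.1 and 31.6 to 41.1 CPM to 58.7 to 83.5 and 60.3 to 96.2 CPM, with 4 of 12 reaching 1 CPM in any library, Afp rising in both populations and Ass1 in LGR5+ cells. Summed fibroblast and stellate markers were at 45.8 to 55.1 and 53.0 to 54.1 CPM untreated and at 52.3 to 69.3 and 33.7 to 53.7 CPM after 5-FU, with 5 of 10 reaching 1 CPM, Des higher and Pdgfrb lower in both populations. Summed alveolar type 2 markers were at 3830 to 17986 and 5465 to 16352 CPM untreated and at 4701 to 6645 and 3453 to 6487 CPM after 5-FU, with all 10 reaching 1 CPM, Sftpd higher in both populations, Lamp3 and Slc34a2 higher in LGR5+ and Napsa in LGR5- cells. Sftpc made up most of the alveolar type 2 sums, at 61956 to 315963 reads in the untreated and 46591 to 95776 in the 5-FU libraries. It was not among the called markers. The part of all these markers in the changes of Acaa1b, Lpl and Plin2 was not tested.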

How the data were processed

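RNA from sorted cells was amplified with the SMART-Seq v4 kit and sequenced by a service provider. The authors deposited raw counts of reads per Ensembl gene for 12 libraries. The submitters' processing notes name HISAT2, HISAT, TopHat2 and HTSeq, without roles, and the build mm8. Strand, annotation and aligner settings are not given in the sources used here. Gene positions, exon lengths and overlaps come from GENCODE M21 on GRCm38 and promoters from RefSeq (GRCm38.p6), so they describe that annotation and not the authors' counting. Of 8 genes, 7 had a promoter entry in the RefSeq table and Lpl was not matched. Identifiers were paired with symbols for 46488 of 47069 genes. Exons of Acaa1a, Acaa1b, Acox3, Acad11, Eci2, Echs1, Cpt1c, Bscl2, Abhd5, Pltp, Apoc2, Pnpla3, Pck2 and Acsl3 overlap other genes, so part of their reads may belong to the neighbor.

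Counts were fitted with edgeR 4.0.16 in R 4.3.3: TMM scaling, filterByExpr by group, 1 mean per group over 12 libraries in 4 groups, robust quasi-likelihood tests and Benjamini-Hochberg adjustment over 16157 genes. The biological coefficient of variation was 26.6%, and a gene was called at an adjusted p under 0.05. The fit was tested on simulated data. Alternatives were DESeq2 1.42.0, other scalings and filters, the groups compared alone, the study's thresholds, a replicate block shared by all 4 groups and each library left out. Deviations of same-numbered libraries from their group means correlated at 0.57, 0.22 and 0.30 between LGR5+ and LGR5- cells after 5-FU. The numbers come from the sample titles, and whether they pair libraries is not stated in the sources used here. Between 5-FU and untreated LGR5- cells the values were 0.055, 0.28 and 0.42. The lowest values were -0.12 between untreated LGR5+ and LGR5- cells and -0.17 between 5-FU and untreated LGR5+ cells. No library pair agreed within sampling noise. Members and lists were chosen with earlier results of these data known. Beside the 8 genes, up to 3 genes per list with the smallest unadjusted p in either 5-FU comparison were named, with Acaa1a, Rxra, Ppargc1a, Hsd17b4 and the genes the study listed. Some genes of the lists are counted but not reported here by name. Genes named for having few reads, and marker genes, were picked after their values were seen. A floor of 3 reads per library was only expressed in CPM and entered no filter or test. It covers counting error only. Protein sequences were not used here.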

Additional observations from a re-analysis of the deposited data

How the results depend on the processing

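The number of called genes among the 8, and their direction, was the same under every alternative listed in the processing section and without any 1 library: 3 in each 5-FU comparison (2 higher, 1 lower) and 0 in the other 3 comparisons. Under the filter of at least 10 reads in every library only 6 of the 8 could be tested, since Ppara and Pparg were removed. Over all alternatives the log2 fold change of Acaa1b ranged from 3.22 to 3.50 in LGR5+ and from 2.23 to 2.88 in LGR5- cells, that of Lpl from -2.33 to -1.83 and from -1.75 to -1.41, and that of Plin2 from 1.80 to 2.02 and from 1.42 to 1.79. With the replicate block, which all 4 groups shared, Acaa1b was at 0.61 (edgeR adjusted p = 0.259) and Plin2 at 0.53 (adjusted p = 0.258) between LGR5+ and LGR5- cells after 5-FU. No call among the 8 genes changed. A fit that paired only the 5-FU libraries was not run. Over all genes the block gave 2967 and 2890 called genes in LGR5+ and LGR5- cells instead of 2590 and 2489, and DESeq2 3194 and 3064.

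Signs changed only for values that had not passed the test. Without both LGR5- replicate 3 libraries the response in LGR5- cells was 0.025 for Ppara and -0.084 for Angptl4. Leaving out 1 library gave ranges that cross 0 for the response of Ppard in LGR5+ cells (-0.056 to 0.318), for the responses in LGR5- cells of Ppara (-0.455 to 0.259), Pparg (-1.19 to 0.184), Ppard (-0.089 to 0.469) and Ehhadh (-0.622 to 0.0045), and for LGR5+ against LGR5- of Pparg (-0.795 to 0.330), Acaa1b (-0.566 to 0.072), Ehhadh (-0.241 to 0.199) and Cpt1a (-0.098 to 0.030) untreated and of Ppara (-0.537 to 0.178) and Lpl (-0.287 to 0.016) after 5-FU. The same held for the difference between responses of Ppard (-0.347 to 0.214) and, in LGR5- cells, for Angptl4 (-0.192 to 1.06), Pnpla3 (-1.35 to 0.073), Acaa1a (-0.412 to 0.074) and Hsd17b4 (-0.416 to 0.148). The cause was not tested. In the comparisons other than LGR5+ against LGR5- after 5-FU, not every library correlated best with its own number. The replicate block there gave an adjusted p of 0.0734 for Fabp4 in LGR5+ and 0.0527 for Pltp in LGR5- cells, and changed the calls in LGR5- cells from 3 to 5 for ketogenesis and other PPAR targets and from 2 to 1 for the lipase system. Beyond the 8 genes, and counted over every gene, 5-FU comparison and setting, leaving out 1 library ended a call of a named pathway gene 58 times and gave one 2 times, and the other alternatives did so 24 and 5 times. Ppara and Pparg rested on 5 to 17 and 2 to 28 reads a library.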
